A study of Mus musculus with 18 samples.

Results

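CD4+ T cells that had spent 4 days with P13.9 cells and peptide at 0.01 µM, the lowest dose of the series, were compared with P13.9 cells alone, a fibroblast line that presents the peptide. The comparison covers 6 of the 18 libraries, 3 per group, and all 15697 named genes, of which 6973 passed a filter on low values. The T cells were taken as naive cells from spleen and lymph node and carried the transgenic 5CC7 receptor, which recognises the peptide pPCC on the class II molecule I-E. The P13.9 group is the line without T cells and without a labelled peptide. Naive CD4+ T cells and the coculture at 10.0 µM, 3 libraries each, served to sort the genes that were higher at 0.01 µM. Cocultures at 0.1 and 1.0 µM, also 3 libraries each, were kept out of the sorting. All activated libraries are labelled as CD4+ T cells at day 4. Whether P13.9 cells were removed before RNA extraction is not given in the sources used here.

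A coculture can hold the RNA of 2 cell types, so genes of T cells can be higher and genes of fibroblasts lower than in the line alone without any change in either cell. Fibroblasts exposed to cytokines such as TNF or interleukin 1 make Cxcl1 and Cxcl2, which attract neutrophils, and Ccl2, which attracts monocytes. Transcription of these genes depends on NF-kappa-B, a family of factors held in the cytoplasm by inhibitors until a receptor signal releases them. In T cells a weak receptor signal is known to favour Gata3, the factor of T helper 2 cells, and a strong one Tbx21, the factor of T helper 1 cells.

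The libraries differed in depth and in the cells they held. Whole reads in named genes ran from 382374 to 732987 at 0.01 µM, from 201620 to 351978 in P13.9 and from 27784 to 97752 in naive cells, where a single read stood for 2.17 to 6.55 units. Correlations between replicates over 8178 genes were 0.946 to 0.972 at 0.01 µM, 0.926 to 0.947 in P13.9 and 0.601 to 0.765 in naive cells. The summed level of 26 T cell identity genes was 1796 to 1982 at 0.01 µM and 46.8 to 74.9 in P13.9, while that of 28 fibroblast matrix genes was 382 to 566 and 930 to 1066. P13.9 libraries were not free of T cell transcripts, with Trbc1 at 13.1 and Trac at 9.33. Naive libraries also held neutrophil transcripts, with 8 neutrophil genes summing to 944 to 1292, against 47.1 to 59.0 at 0.01 µM, 6.85 to 9.39 at 10.0 µM and 0 to 2.01 in P13.9. Of the defining CD8 genes, Cd8a had no read at 0.01 µM, and 6 genes of CD8 T and NK cells summed to 0.335 to 0.696 there. The numbers in the sample descriptions put P13.9, naive, 1.0 and 0.01 µM in 1 set and 10.0 and 0.1 µM in another. What these numbers stand for is not stated. Comparisons of 0.01 µM with 10.0 or 0.1 µM cross these sets, so dose and set cannot be told apart there.

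At an adjusted p below 0.05 (limma, Benjamini-Hochberg over all genes tested), 1378 genes were higher at 0.01 µM than in P13.9, 19.8% of those tested, and 1960 were lower, 28.1%. In these bulk libraries fewer cells of a type and less RNA of a gene per cell cannot be told apart. In the 2 other comparisons that the sorting uses, 1578 genes (22.6%) were higher and 786 (11.3%) lower than at 10.0 µM, and of 8178 genes tested against naive cells 2045 (25.0%) were higher and 2097 (25.6%) lower. The 3 comparisons share the 0.01 µM libraries. Genes higher than in P13.9 made up 41.3% of the calls, and this share depended on the scaling: 58.4% after quantile normalization, 61.0% in reads scaled to the library total (CPM) and 51.8% with edgeR. The median log2 change over the same genes was -0.14 in the values as deposited, 0.11 after quantile normalization and 0.14 in CPM, so small changes of either sign are relative to that shift. Levels below are normalized values, given as mean ± SD with n = 3 or in library order, and log2 changes are of value + 1, 0.01 µM minus P13.9 unless said otherwise, ± the standard error of the fit.

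**Figure D1:**
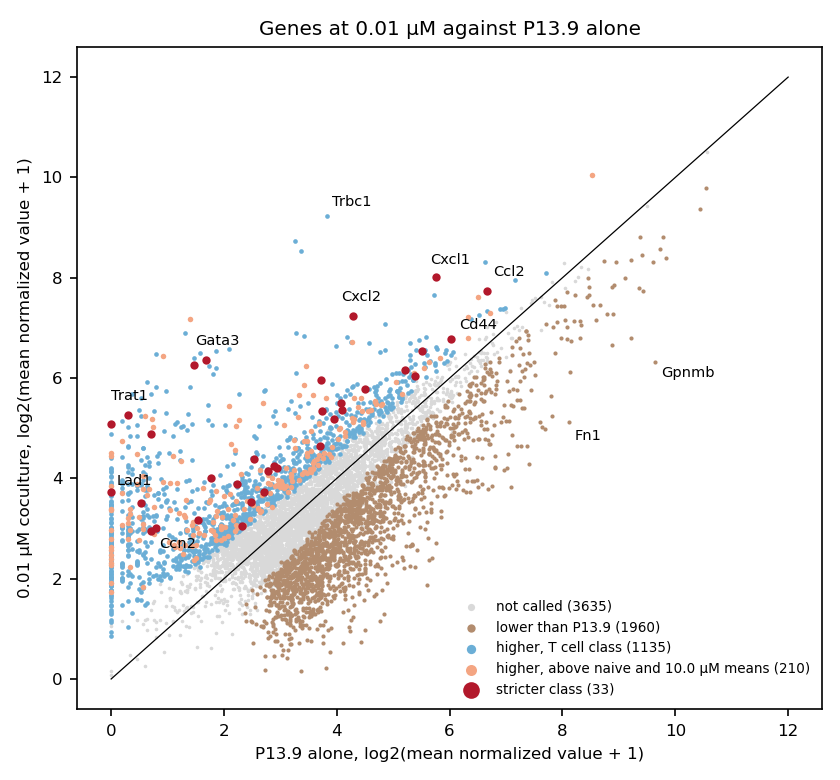
Mean level of each tested gene in P13.9 alone (x axis) and at 0.01 µM (y axis), both as log2(mean normalized value + 1); the line marks equal levels and colours mark the classes of the text. The 33 genes of the stricter class lie above the line at both low and high P13.9 levels, with Cxcl1 at 52.9 and Trat1 at 0.223 in P13.9.

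Most of the higher genes were at least as high in naive T cells or at the highest dose. Of the 1378, 1135 had a mean at or below that of naive cells or of 10.0 µM, and these form the T cell class. The naive mean was at or above the 0.01 µM mean in 618 of them, the 10.0 µM mean in 858 and both in 341. All 26 T cell identity genes tested were higher than in P13.9 (25 of them with DESeq2), and 24 fell in this class. That is near the share over all higher genes, 1135 of 1378, so a place in the class does not mark a gene as one of T cells. Trac, which encodes the constant part of the receptor alpha chain, had values of 339, 360 and 404 at 0.01 µM and 8.44, 13.4 and 6.19 in P13.9. The groups lay far apart, with a log2 change of 5.21 ± 0.20 (limma adjusted p = 2.46e-15), and naive cells stood higher still at 591 ± 44.5. Trbc1, the beta chain counterpart, was at 600 ± 76.7 against 13.1 ± 2.67 in P13.9, and at 612 ± 49.1 at 10.0 µM. Tmsb4x, an actin-binding peptide gene abundant in lymphocytes, was at 426 ± 47.8 against 8.59 ± 2.04. Cd3e, a signalling chain of the receptor complex, had no read in P13.9 and values of 10.7, 9.74 and 8.77 at 0.01 µM, at least 16.8-fold higher by a floor of 3 reads over the group. Laptm5, Igfbp4, Ltb, Limd2, Cd3d, Rac2 and Trbc2 complete the 10 largest rises of the class, each from a P13.9 mean below 2.

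The T cell class also held marker genes of other cells. S100a8, a neutrophil gene, was at 27.6, 25.7 and 30.02 at 0.01 µM, at 483 ± 69.8 in naive cells, at 3.50 ± 0.351 at 10.0 µM and at 0.370 ± 0.340 in P13.9. Its level at 0.01 µM exceeded that at 0.1 µM (9.56 ± 4.58) and 1.0 µM (6.26 ± 2.84) in every library. S100a9 followed the order of S100a8 at lower levels, 13.8 ± 3.54 at 0.01 µM. Ctss, a lysosomal protease of myeloid cells and the 1 myeloid gene of 14 that passed the filter, was at 13.92 against no read in P13.9, at least 23.6-fold higher, and at 9.88 at 10.0 µM.

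The remaining 243 higher genes, 17.6% of the 1378, had a mean at 0.01 µM above those of P13.9, naive cells and 10.0 µM at once. The class held 446 genes after quantile normalization, 551 in CPM and 550 with edgeR. Their own values chose these genes, so their levels are a description and no test. The edge of the class is narrow: Pfdn1 and Ebi3 fell just outside with 0.998 and 0.999 times the higher of the naive and 10.0 µM means, and Casp8 and Ptger4 just inside with 1.00 and 1.01 times. A stricter class of 33 genes (2.39% of the higher genes) also had to be called against 10.0 µM and naive cells, with the lowest 0.01 µM library above the highest of the 9 libraries of P13.9, naive cells and 10.0 µM. The gap between those libraries was 1.07-fold for Smco4 and 1.56-fold at the median. The filter, a value of 5 in 3 libraries, was passed only through the 0.01 µM libraries by 29 of the 243 genes and by 5 of the 33, Ccl20, Ccn2, Cryab, Lad1 and Sgo2a. Of the 33 genes, 27 kept their place under quantile normalization, CPM, edgeR and DESeq2 alike. Only 10 kept it in all 21 settings in which this was followed. The fewest settings were 7 for Myo6, 8 for Ccl20, 11 for Psmd1, 12 for Ifi27l2a and 15 for Ezh2 and Sgo2a. The class grew to 82, 98 and 86 genes under quantile normalization, CPM and edgeR.

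The middle doses, which the rule did not use but which are set against the same 0.01 µM libraries, showed lower levels for most of the stricter class. The median level of the 33 genes was 44.3% of the 0.01 µM mean at 0.1 µM and 39.5% at 1.0 µM, with 31 and 30 genes below it. For the T cell class the corresponding ratios were 1.26 and 1.24, and over all tested genes 0.937 and 0.915. Both classes were sorted on the 10.0 µM coculture, so levels in the other cocultures are not independent of the sorting. In 16 of the 33 genes both middle doses lay under 50% of the 0.01 µM mean, among them Cxcl1, Cxcl2, Ccl2, Ccl9, Ccl20, Cd44, Lad1 and Trat1. In 5 genes, Batf, Cxcr6, Ezh2, Ifi27l2a and Smco4, both middle doses stayed at or over 80%. The other 12, Gata3 and Mki67 among them, lay between. The 14 genes whose P13.9 mean exceeded those of naive cells and 10.0 µM had medians of 40.2% and 27.4% at 0.1 and 1.0 µM, and the other 19 had 59.1% and 60.9%. This split used values that the sorting had also used, and the difference was not tested.

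**Figure D2:**
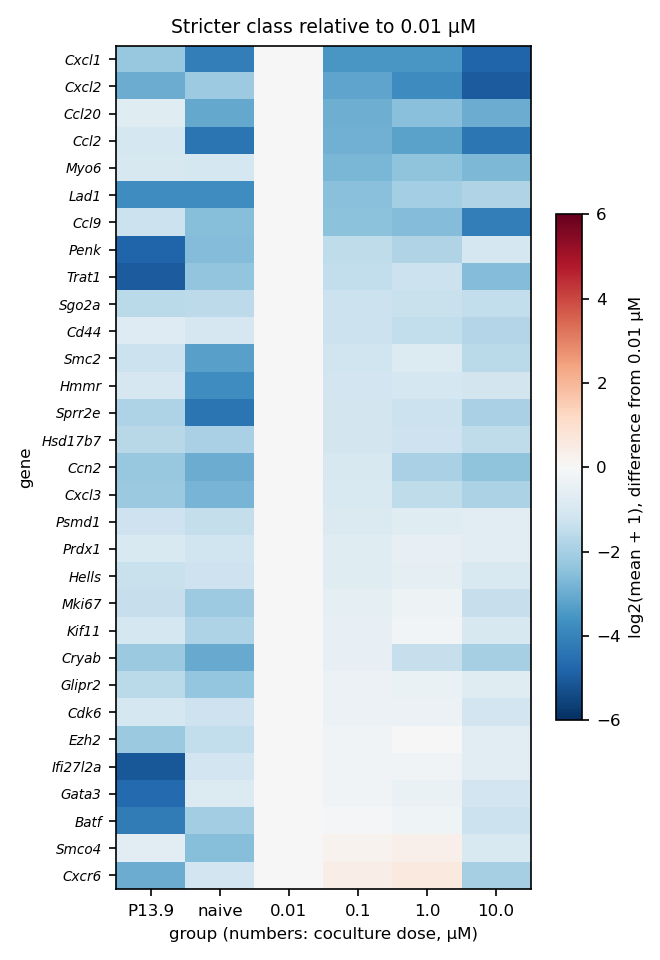
Difference of each group's mean from the 0.01 µM mean, both as log2(mean + 1), for 31 of the 33 genes of the stricter class (rows) in the 6 groups (columns), ordered by the 0.1 µM column; blue marks lower and red higher levels. Cxcl1, Cxcl2, Ccl20 and Ccl2 fill the top rows with lower levels at every other dose, while Batf, Smco4 and Cxcr6 at the bottom stay at or over 80% at 0.1 and 1.0 µM.

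Of 7 neutrophil and monocyte chemokine and colony-stimulating factor genes tested, 5 were higher at 0.01 µM than in P13.9 and none lower, against 19.8% higher over all genes, and all 5 fell in the stricter class (4 were called with DESeq2). Ccl20, 1 of the 5, passed the filter on low values only through the 0.01 µM libraries. The list was written with earlier results of these data known. All 7 were called higher than at 10.0 µM and than in naive cells, against 22.6% and 25.0% of all genes. Fibroblast matrix genes were also mostly higher in these comparisons, 15 of 18 against 10.0 µM and 13 of 19 against naive cells. Cxcl1, a neutrophil attractant, had values of 210, 269 and 296 at 0.01 µM and 61.4, 50.8 and 46.4 in P13.9. The lowest coculture library stood more than 3 times above the highest P13.9 library, and the log2 change was 2.26 ± 0.17 (limma adjusted p = 3.53e-10). The other cocultures were much lower, with 22.4 ± 1.78 at 0.1 µM, 21.9 ± 3.60 at 1.0 µM and 8.15 ± 0.0940 at 10.0 µM, and naive cells had 13.8 ± 10.1.

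Cxcl2, a close relative with the same receptor, had values of 144, 171 and 138 at 0.01 µM and 17.6, 17.4 and 20.3 in P13.9. The change was 2.96 ± 0.24 (limma adjusted p = 1.24e-09), the largest of the list, and no library of another group exceeded the 35.1 of naive library 2. Cxcl3, the third of this cluster on chromosome 5, had fewer reads and more spread, with 9.04, 11.8 and 24.3 against 2.30, 4.01 and 0.884 (2.24 ± 0.57, limma adjusted p = 0.00248). Its 0.01 µM libraries stayed above those of P13.9, but its mean at 0.1 µM was still 7.54 ± 1.25.

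Ccl2, the main monocyte attractant, was abundant in P13.9 at 95.1, 104 and 103 and stood at 167, 230 and 243 at 0.01 µM. The change was smaller, 1.06 ± 0.31 (limma adjusted p = 0.00672), and it lost its call when naive libraries entered the estimate of the spread (adjusted p = 0.311). Ccl9, a chemokine outside the list that the stricter class also held, was at 33.7, 48.5 and 80.3 against 21.5, 20.1 and 22.98 (1.21 ± 0.31, limma adjusted p = 0.00253), a call lost in the same setting (adjusted p = 0.227). Ccl20, which attracts cells with the receptor Ccr6, was low in every library: 6.03, 7.19 and 8.77 at 0.01 µM against 3.83, 3.34 and 4.86 in P13.9, with no read in naive cells and 1 read at 10.0 µM. Its log2 change of 0.73 ± 0.30 sat at the threshold (limma adjusted p = 0.0476), and the call was lost in 7 of the alternative settings, with edgeR (adjusted p = 0.05028), DESeq2 (0.235) and no filter (0.123) among them.

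The remaining pair of the list was not called. Ccl7, a monocyte attractant encoded beside Ccl2, was at 50.9, 63.1 and 68.5 against 33.7, 50.8 and 39.3 in P13.9, a log2 change of 0.56 ± 0.40 (limma adjusted p = 0.267). It was called with edgeR (0.76, adjusted p = 0.02902) and in a fit of the 2 groups alone (adjusted p = 0.0172). Csf1, the growth factor of macrophages, was at 72.7, 88.1 and 110 against 81.3, 110 and 82.2 (-0.02 ± 0.38, limma adjusted p = 0.972). At 10.0 µM Ccl7 was at 2.65 and Csf1 at 5.65.

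**Figure D3:**
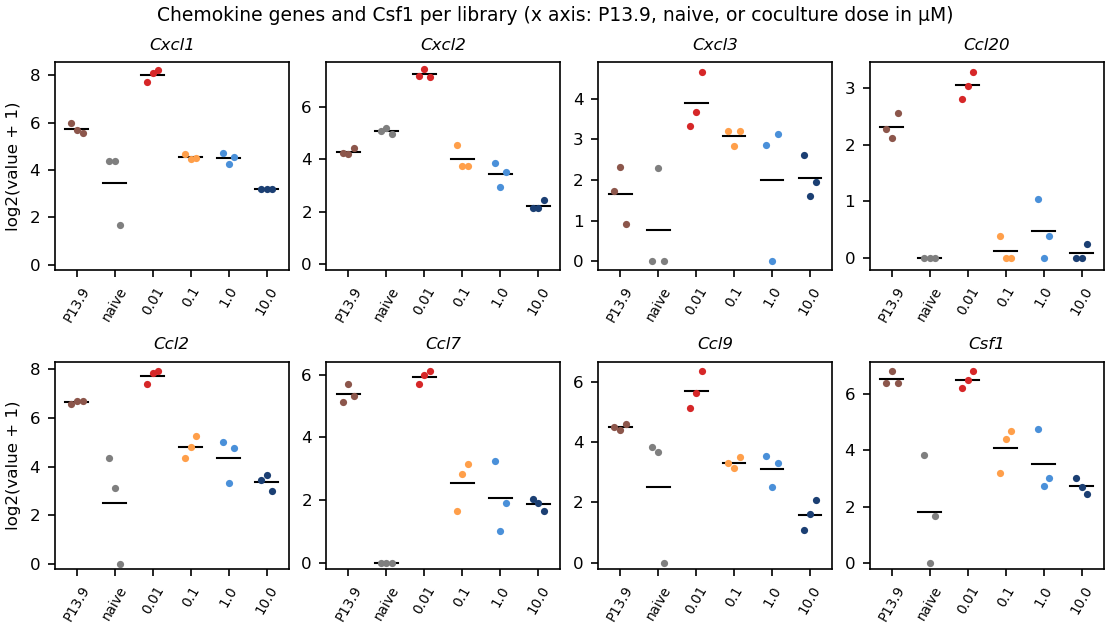
Level of 7 chemokine genes and of Csf1 in each of the 18 libraries as log2(normalized value + 1), by group; points are libraries and bars the mean of the 3. The 0.01 µM points of Cxcl1 and Cxcl2 stand clear of all other groups, those of Ccl7 lie just above P13.9 without a call, and those of Csf1 overlap P13.9.

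These levels can be read against fibroblast transcripts of the same libraries. Over 64 fibroblast-restricted genes, defined with the falls further on, the median such gene was at 22.1% of its P13.9 level at 0.01 µM, whereas Cxcl1 was at 489%, Cxcl2 at 817%, Ccl2 at 212%, Ccl7 at 147% and Csf1 at 99.1%. Relative to that median Cxcl1 stood 22.1 times, Cxcl2 36.9 times, Ccl2 9.55 times and Csf1 4.48 times higher, the last without a call against P13.9. Cxcl1, Cxcl2 and Ccl2 belong to the stricter class, whose rule put every 0.01 µM library above every P13.9 library. Against a median of 22.1%, high multiples for these genes therefore follow in part from the sorting and are a description. The ratios take each gene's P13.9 level as the baseline, and which cells made the transcripts was not tested. A second set was 25 genes of the matrix and contractile lists with a P13.9 mean of 10 or more and a 10.0 µM mean under 50% of it. Their median was 33.8%, with quartiles of 21.3% and 41.4% and a range of 11.6% to 130%. Csf1 lay within that range. Against that median Cxcl1 stood 14.5 times, Cxcl2 24.2 times, Ccl2 6.26 times and Csf1 2.93 times higher. The neutrophil genes S100a8 and S100a9 were also higher at 0.01 µM than in P13.9 and at 10.0 µM, and their part in the Cxcl2 and Cxcl1 levels was not tested. In naive libraries, where S100a8 was at 483 ± 69.8, Cxcl2 was at 32.7 ± 2.41, above its level in every P13.9 library, and Cxcl1 at 13.8 ± 10.1.

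The promoters of these genes are shown because several hold a motif of NF-kappa-B. The motif GGGNNTTTCC, searched on both strands in the 250 bases before each gene's start, was present for Cxcl1, Cxcl2, Cxcl3, Ccl20 and Ccl9, and for Csf1. Ccl2 and Ccl7 were not searched. The lines give the stretch around the matches, 5′ to 3′ on the gene's strand, with matches in capitals (RefSeq, GRCm38.p6).
Cxcl1, chr5:90891126-90891213 (+): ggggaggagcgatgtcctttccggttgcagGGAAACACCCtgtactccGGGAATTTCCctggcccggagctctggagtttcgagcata
Cxcl2, chr5:90903772-90903860 (+): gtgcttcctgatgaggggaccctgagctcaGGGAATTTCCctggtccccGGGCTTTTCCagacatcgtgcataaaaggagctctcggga
Cxcl3, chr5:90785998-90786067 (+): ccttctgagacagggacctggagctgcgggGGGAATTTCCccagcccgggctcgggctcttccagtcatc
Ccl20, chr1:83116656-83116725 (+): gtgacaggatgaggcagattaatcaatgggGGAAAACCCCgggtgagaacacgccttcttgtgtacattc
Ccl9, chr11:83578637-83578701 (-): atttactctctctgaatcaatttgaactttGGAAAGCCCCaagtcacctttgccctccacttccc
Csf1, chr3:107760584-107760653 (-): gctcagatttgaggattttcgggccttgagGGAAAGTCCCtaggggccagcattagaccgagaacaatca

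Cxcl1 and Cxcl2 each held 2 matches, 62 to 97 bases before the start, and Cxcl1, Cxcl2 and Cxcl3 shared the version GGGAATTTCC. Ccl20, Ccl9 and Csf1 held the motif on the opposite strand. The motif stood in 1.41% of all 32851 promoter windows, in 98 of 5310 tested genes with an entry (1.85%), in 9 of 187 genes of the class of 243 (4.81%) and in 5 of 26 of the stricter class (19.2%). Those 5 are all chemokines, the motif was chosen with the chemokine values known, and a match describes letters, not binding.

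Penk and Ccn2, which encode secreted products, were higher too. Penk, which encodes the precursor of enkephalin peptides, was at 70.7, 69.3 and 86.4 against 0, 4.01 and 1.33. Its means at 0.1 and 1.0 µM (25.4 ± 1.06 and 20.8 ± 3.30) lay below that at 10.0 µM (35.6 ± 1.15), a difference that was not tested. Ccn2, a matrix-associated growth factor of fibroblasts, was low throughout, at 5.86, 6.96 and 7.42 against 3 reads in P13.9, a ratio of 11.1 (95% counting interval 3.67 to 54.8).

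Il6 and Lif, cytokine genes that fibroblasts can express, were too low to pass the filter. Il6 had 30 reads at 0.01 µM, 2 in P13.9 and none in naive cells, a ratio to P13.9 of 5.73 (95% counting interval 1.45 to 49.5). Lif was at 3.94 ± 1.69 against 0.959 ± 1.13. The list of fibroblast responses to TNF and interleukin 1 gave other counts: of 6 genes tested none was higher and 4 were lower, against 28.1% lower over all genes. Tnfaip2, a TNF-induced gene, was at 12.2, 15.3 and 12.1 against 56.0, 52.8 and 63.6 (-2.04 ± 0.28, limma adjusted p = 2.87e-06), Sod2, the mitochondrial superoxide dismutase, at 29.5 ± 2.52 against 66.7 ± 9.60, and Icam1 at 4.88 ± 1.66 against 13.1 ± 3.42. Vcam1, an adhesion molecule, was at 11.2 against 5.87 without a call (limma adjusted p = 0.0599). Under quantile normalization, CPM and edgeR 1 gene of the list was called higher.

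Of 16 NF-kappa-B feedback genes tested, 5 were higher and none lower, against 19.8% and 28.1% of all genes. The higher count was 8 after quantile normalization (1954 of 7201 genes tested there) and 8 with edgeR (1883 of 8155). It was 7 in CPM (2028 of 7176) and 3 with DESeq2 (1490 of 11694). The list had a median log2 change of 0.50 (-0.14 over all genes). Nfkbia, which encodes the main inhibitor, was at 294 against 322, and Tnfaip3, a feedback enzyme, at 7.15 against 3.23 and 103 in naive cells. Bcl3 was at 20.6 against 3 reads in P13.9, a ratio of 36.0 (95% counting interval 12.2 to 176), and Birc3 at 5.54 against no read, at least 9.30-fold higher. Their naive means were 27.7 and 14.5. Nfkb2 was the 1 member above all 3 other means, at 10.2 against 5.77, 9.44 and 7.83, and its call was lost in 7 alternative settings.

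All 6 T helper 2 genes tested were higher than in P13.9, against 19.8% of all genes, and 5 of the 6 lay in the class of 243, against 3.48%. Of the 6, 3 were called higher than in naive cells (25.0% of all genes), and 1, Gata3, was in the stricter class. This list too was written with earlier results of these data known. Shares of a list in the class of 243 describe the values that chose the class and are no test. The 26 T cell identity genes tested were likewise all higher than in P13.9, with 2 in the class of 243. Gata3, the master regulator of T helper 2 cells, was at 86.2, 74.9 and 83.7 against 1.53, 3.34 and 1.77 in P13.9. No library of naive cells (45.8 ± 12.1) or 10.0 µM (36.3 ± 4.30) reached these values, but those of 0.1 µM (71.0 ± 8.56) and 1.0 µM (62.0 ± 14.9) overlapped them. Il13, a T helper 2 cytokine, was at 38.0, 29.7 and 36.4 against 5.37, 3.34 and 2.65 (2.93 ± 0.32, limma adjusted p = 1.17e-07), but 1 naive library, at 39.0, was as high. Epas1, a hypoxia-inducible factor subunit, had no read in P13.9 and 21.6 ± 2.16 at 0.01 µM, at least 37.1-fold higher, against 1.73 ± 0.777 at 10.0 µM. Il4ra, the receptor chain of interleukins 4 and 13, was at 49.7 ± 16.1 against 9.11 ± 3.26, near its naive level of 46.7 ± 20.1. Maf, a transcription factor of cytokine genes, was at 18.9 ± 3.799 against 0.773 ± 0.108 and belonged to the T cell class, with 28.7 ± 3.59 in naive cells.

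The other type 2 cytokines were near the limit of detection. Il4 had 2 reads at 0.01 µM and 1 in P13.9, Areg 3 reads and none, Il5 19 reads and 1, and Il10 21 reads and 2. Csf2 was at 2.51, 1.85 and 7.42 against 3.83, 0 and 0. None of these passed the filter, so they were not tested.

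Targets of interleukin 4 and 13 signalling were higher in 6 of 7 genes tested (19.8% of all genes), 3 of them in the class of 243 (3.48%). None fell in the stricter class. Of 8 tested against naive cells none was called higher and 2 were lower (25.0% and 25.6% of all genes). Il4ra counts in this list and in the T helper 2 list. Cish, a feedback inhibitor of cytokine receptors, was at 26.6, 24.1 and 23.6 against 3.07, 2.67 and 4.42 (2.57 ± 0.24, limma adjusted p = 9.37e-09). Socs1, of the same family, was at 14.1 ± 0.733 against 1.26 ± 1.10 with 4.90 ± 1.59 and 3.46 ± 0.389 at the middle doses and 12.2 ± 1.54 at 10.0 µM. Nfil3, Stat6 and Batf3 were higher than in P13.9, with means below those at 10.0 µM.

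No T helper 1 gene lay in the class of 243, which held 3.48% of all genes, so for 10 genes tested this count is near that share. Of 10 tested, 6 were higher than P13.9 (19.8% of all genes), or 4 with edgeR and 3 with DESeq2, and 8 were lower than at 10.0 µM, against 11.3% lower over all genes. Gzma, which encodes a granzyme of cytotoxic lymphocytes, was at 8.71, 8.35 and 7.42 at 0.01 µM against 1.25 ± 0.333 in P13.9 (2.03 ± 0.24, limma adjusted p = 3.33e-07), and at 26.5 ± 13.2 in naive cells and 88.4 ± 14.1 at 0.1 µM. Il12rb1, a chain of the interleukin 12 receptor, was at 10.3 ± 2.81 against 2.29 ± 1.49 (1.85 ± 0.29, limma adjusted p = 1.96e-05), and Gzmb, another granzyme, at 3.54 ± 0.958 against 1.22 ± 0.684 (1.05 ± 0.30, limma adjusted p = 0.00672), a call lost in 3 alternative settings. Tbx21 was at 1.17, 0.927 and 1.01 at 0.01 µM against 1 read in P13.9 and 17.5 ± 1.56 at 10.0 µM, and its call against P13.9 was lost in 11 alternative settings. The ratio to P13.9 was 5.35 (95% counting interval 0.814 to 226). Cxcr3, which T helper 1 cells use to follow interferon-induced chemokines, had 1 read at 0.01 µM and 13.8 ± 0.719 at 10.0 µM.

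**Figure D4:**
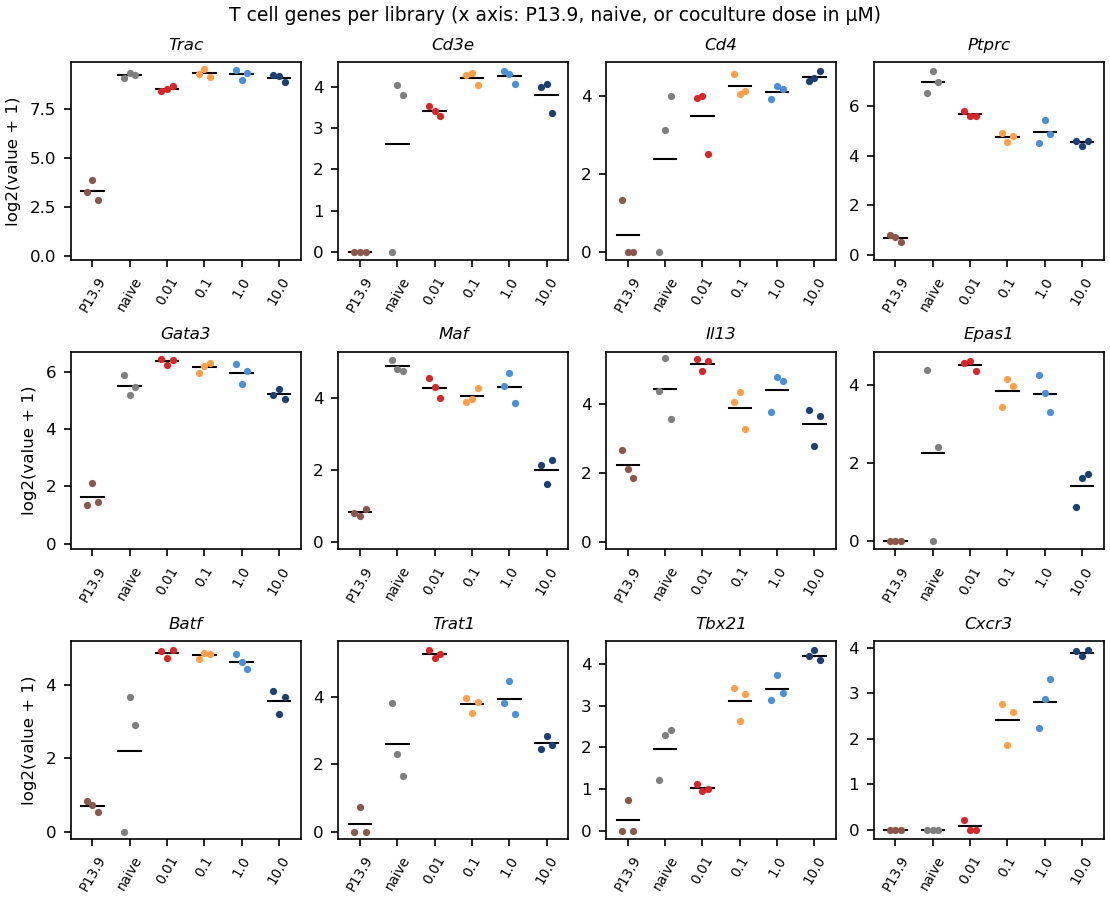
Level of 12 T cell genes in each of the 18 libraries as log2(normalized value + 1), by group; points are libraries and bars the mean of the 3. Gata3, Batf and Trat1 are highest or level with the highest at 0.01 µM, while Tbx21 and Cxcr3 are near 0 there and highest at 10.0 µM.

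Further T cell genes of the stricter class were Batf, Trat1 and Cxcr6. Batf, a transcription factor of effector T cells, was at 29.8, 26.0 and 30.02 against 3 reads in P13.9, a ratio of 48.3 (95% counting interval 16.4 to 235), and at 11.1 ± 2.61 at 10.0 µM. Trat1, an adaptor that stabilises the T cell receptor complex, was at 40.4, 34.3 and 37.4, with 1 read in P13.9 (ratio 191, 95% counting interval 34.1 to 7561), 12.8 ± 2.13 at 0.1 µM and 5.22 ± 0.849 at 10.0 µM. Cxcr6, a chemokine receptor of tissue T cells, was at 10.4 ± 2.13 against 2 reads in P13.9, with means of 13.996 ± 2.603 and 16.2 ± 5.61 at 0.1 and 1.0 µM and overlapping libraries. Il2ra, the high-affinity chain of the interleukin 2 receptor, was at 86.8, 86.9 and 83.0 against 1.53, 0.669 and 0.442, and was in the class of 243 but not called against 10.0 µM (64.1 ± 5.89, limma adjusted p = 0.0739). Of 13 activation genes tested 11 were higher (19.8% of all genes) and 2 lower, Tnfrsf9 (6.19 against 24.7) and Myc (3.61 against 10.2). Cd44, an adhesion receptor that both cell types express, was at 94.1, 111 and 121 against 69.0, 70.2 and 52.1 (0.77 ± 0.17, limma adjusted p = 0.00084) and at 31.6 ± 0.890 at 10.0 µM.

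Of 33 cell cycle genes tested, 28 were higher and 1 lower, against 19.8% and 28.1% of all genes. Of the 28, 21 belonged to the T cell class, as did 1135 of all 1378 higher genes. The list had a median log2 change of 0.93. Tk1, thymidine kinase, was at 13.4 ± 3.30 against 2 reads in P13.9, a ratio of 35.7 (95% counting interval 9.75 to 297). Pcna, the sliding clamp of replication, was at 32.1 ± 4.83 against 5.17 ± 3.17, and Birc5, an inhibitor of apoptosis that acts in mitosis, at 103 ± 2.98 against 38.2 ± 9.03. The exception was Ccnd1, cyclin D1, at 58.1, 68.4 and 67.5 against 95.9, 118 and 107 (-0.71 ± 0.26, limma adjusted p = 0.0279), a call lost after quantile normalization (adjusted p = 0.214) and in CPM (0.214), and without any 1 of the 0.01 µM libraries. It was at 4.03 ± 0.0783 at 10.0 µM.

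Of this list, Mki67 and Cdk6 fell in the stricter class. Ezh2, Smc2, Hells, Sgo2a, Kif11 and Hmmr of that class are in none of the lists. Ezh2, the histone H3 methyltransferase of the Polycomb complex, was at 67.3, 60.3 and 57.0 against 14.6, 10.0 and 11.9 (2.26 ± 0.23, limma adjusted p = 5.61e-08) and at 38.3 ± 6.29 at 10.0 µM. Smc2, a condensin subunit, was at 43.5, 42.9 and 34.4 against 16.9, 13.4 and 17.7. Mki67, the proliferation marker, was at 16.8 ± 2.02 against 5.86 ± 1.32 in P13.9 and 5.85 ± 1.23 at 10.0 µM, but 1 library at 1.0 µM reached 20.7. Cdk6, the partner kinase of D cyclins, was at 92.4 ± 15.5 against 44.5 ± 5.17. By contrast the replication genes Mcm2 to Mcm7, all higher than in P13.9, were all called lower than at 10.0 µM.

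Other genes of the stricter class fell in none of these lists. Lad1, an anchoring filament protein, had no read in 6 libraries of P13.9 and naive cells and 14.1, 11.4 and 11.1 at 0.01 µM, at least 21.1-fold above P13.9. Ifi27l2a, an interferon-inducible gene, was at 32.8 ± 1.33 with no read in P13.9, at least 55.5-fold higher, and at 14.1 ± 4.86 in naive cells. Sprr2e, a small proline-rich protein of epithelia, was at 14.9, 22.95 and 21.9 against 4.60, 4.01 and 5.74, and Cryab, a small heat-shock protein, at 7.08 ± 1.25 against 0.740 ± 0.680. Glipr2, Prdx1, Psmd1, Hsd17b7 and Smco4 were 1.59 to 3.75 times their P13.9 mean. Myo6, an unconventional myosin, was at 24.95, 26.0 and 21.3 against 12.3, 11.4 and 12.4 and 2.75 ± 0.142 at 0.1 µM, but its call against P13.9 (limma adjusted p = 0.044) was lost in 9 alternative settings.

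Of 16 interferon-stimulated genes tested 10 were higher than in P13.9 and 2 lower (19.8% and 28.1% of all genes), and 11 were lower than at 10.0 µM (11.3%). None of the 16 lay in the class of 243, which held 3.48% of all genes, so this count is near that share. Psmb8, a subunit of the immunoproteasome, was at 57.8 ± 3.82 against 14.02 ± 3.14 in P13.9 and 163 ± 20.5 at 10.0 µM. Bst2, the antiviral tether, was lower than in P13.9, at 37.1 against 91.1. Immediate early genes, the rapid targets of receptor signals, gave 2 higher and 4 lower of 10, near the shares over all genes (19.8% and 28.1%), or 4 higher and 3 lower after quantile normalization, in CPM and with edgeR. The lower genes included Fosl2 at 12.5 ± 1.23 against 50.9 ± 8.83 and Jun at 11.7 ± 2.55 against 28.02 ± 6.42.

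Class II and costimulation genes had a median log2 change of -0.87, against -1.48 for matrix genes. H2-Eb1, the beta chain of I-E, was at 15.7, 16.7 and 18.9 at 0.01 µM and 9.20, 17.4 and 13.3 in P13.9 (0.38 ± 0.36, limma adjusted p = 0.399), and at 1.21 ± 1.06 at 10.0 µM. Naive libraries held 13.2 ± 2.40 of it. H2-DMb1, a chain of the complex that loads peptides on class II molecules, was lower at 10.4, 15.3 and 12.1 against 43.7, 42.8 and 46.8 (-1.75 ± 0.39, limma adjusted p = 0.000866). That call was lost with all 18 libraries in the fit (limma adjusted p = 0.0826). Cd74, the invariant chain, was at 4.14 ± 1.39 against 8.48 ± 0.848 (-0.91 ± 0.30, limma adjusted p = 0.0148), a call lost in 7 alternative settings. Cd80, a ligand of the costimulatory receptor CD28, was at 10.2, 8.35 and 14.2 against 23.01, 24.1 and 13.7 (-0.83 ± 0.31, limma adjusted p = 0.0323), a call lost in 9 alternative settings. Cd40, a receptor for T cell help, was at 9.62 against 6.44 without a call. Of 8 class II and costimulation genes tested none was higher and 5 were lower (28.1% of all genes). Under quantile normalization or CPM it was 1 higher and 3 lower.

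Of 18 matrix genes tested 11 were lower and 2 higher (28.1% and 19.8% of all genes), and these counts held under all 4 other scalings and tools. Fn1, fibronectin, was at 25.6, 34.3 and 41.2 against 252, 316 and 265 (-3.02 ± 0.27, limma adjusted p = 6.3e-09), with no overlap. Sparc, a collagen-binding protein, was at 36.6 ± 5.10 against 123 ± 10.8, Col1a2 at 17.4 ± 5.87 against 51.4 ± 3.47 and Timp2, an inhibitor of matrix proteases, at 21.3 against 130. The 2 higher genes were Ccn2 and Lgals1, a galectin that T cells also make (247 against 142, with 359 at 10.0 µM). Among 21 contractile and adhesion genes 11 were lower and 2 higher (28.1% and 19.8% of all genes), with 5 higher and 8 lower after quantile normalization. Cd63 was at 99.5 ± 14.8 against 468 ± 90.5, and the 2 higher were Thy1, which T cells express strongly, and Tpm4.

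The largest falls went beyond the matrix list. Gpnmb, a lysosome-associated glycoprotein, was at 67.3, 89.7 and 78.6 against 806, 822 and 773 (-3.34 ± 0.20, limma adjusted p = 5.38e-12). Gas1, a growth arrest gene, was at 0.659 ± 0.306 against 20.5 ± 4.00, or 3.22% of its P13.9 level, and Snai2, a transcription factor of mesenchymal cells, at 1.23 ± 0.763 against 26.3 ± 10.3. Plin2, which coats lipid droplets, was at 13.3 ± 2.99 against 135 ± 6.02, and was lower than at 10.0 µM (19.7 ± 1.26, limma adjusted p = 0.016). Hbp1, at 2.43 against 27.0, and Aldh1l2, at 1.45 against 27.7, were also present in naive cells (46.8 and 17.4). Actr3b, Fetub, Nr2f1, Dtd2, C1ra and Bloc1s5 complete the 12 largest falls, to 4.47% to 10.9% of the P13.9 mean. Of all 1960 lower genes, 1405 had a 0.01 µM mean between those of P13.9 and 10.0 µM.

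To describe fibroblast transcripts together, genes were taken whose P13.9 mean reached 20, with no read in naive cells and a 10.0 µM mean under 10% of P13.9. This set of 64 genes was defined after the values were seen. Their median level at 0.01 µM was 22.1% of P13.9, with quartiles of 16.4% and 31.5%, and 19.4%, 22.5% and 24.2% in the 3 libraries. At 0.1, 1.0 and 10.0 µM the median was 6.73%, 4.64% and 2.17%. The rule held every gene under 10% at 10.0 µM, so the low median there follows from the choice. Choosing on high P13.9 and low 10.0 µM levels can also lower the percentages at the other doses. In CPM the 0.01 µM median was 27.4%. Of the 64, 4 genes were over 50%: Ppef1 at 50.6%, Ankrd1 at 63.99%, Ak1 at 95.7% and Ccl7 at 147%. Ankrd1, a stretch-responsive gene, was at 19.9, 21.3 and 15.2 against 26.1, 30.8 and 31.4 without a call, and Ak1, adenylate kinase, at 21.1, 25.5 and 20.9 against 22.2, 16.05 and 32.3. At the other end were Gas1, Fetub and Snai2, all under 5%. The mast cell protease gene Tpsab1, which this line expressed at 80.9 ± 12.9, was among the 64 at 15.2%.

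**Figure D5:**
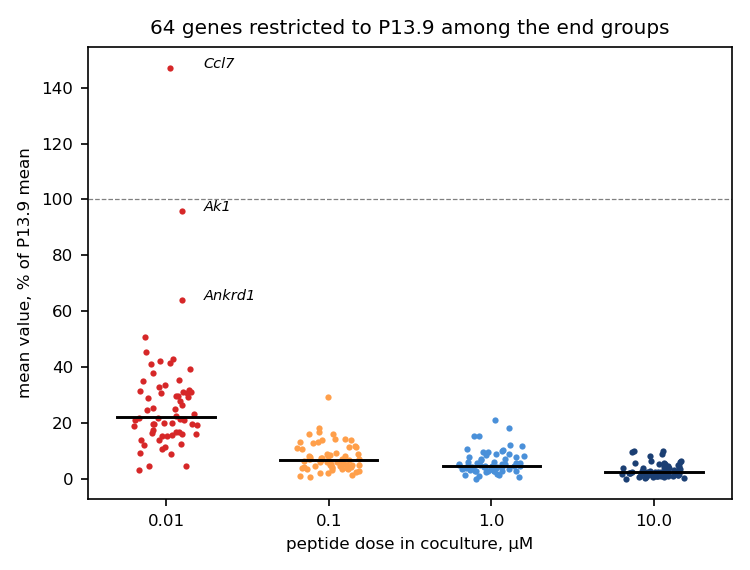
Mean level of the 64 fibroblast-restricted genes as a percentage of their P13.9 mean (y axis) in the coculture at each peptide dose (x axis); points are genes, spread sideways at random, and bars medians. The median is 22.1% at 0.01 µM, and Ccl7 is the 1 gene above its P13.9 level. At 10.0 µM the median is 2.17%, where the rule that chose the genes held each under 10%.

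Of 26 glycolysis and hypoxia genes tested, 4 were higher and 8 lower than in P13.9, near the shares over all genes of 19.8% and 28.1%, or 9 and 6 after quantile normalization. Against 10.0 µM 18 were lower and 1 higher (11.3% and 22.6% of all genes). Ndrg1, a hypoxia-induced gene, was at 11.7, 19.9 and 21.3 against 122, 120 and 89.7, and Bnip3, a mitochondrial hypoxia target, at 12.1 ± 2.15 against 44.8 ± 8.62. Vegfa, the endothelial growth factor, was at 5.02 ± 1.90 against 23.3 ± 1.03. Slc2a3, the glucose transporter of T cells, was at 17.4, 19.5 and 8.43 against 3 reads in P13.9, a ratio of 27.1 (95% counting interval 9.16 to 133), and at 111 ± 29.3 and 109 ± 20.4 at 0.1 and 1.0 µM.

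The mirror of the stricter class, genes lowest at 0.01 µM by the same rule turned around, was added after the data were seen and held 26 genes, with Rpl13, Rps3, Rps14, Rps15, Rps28 and Rplp2 of the ribosome among them. Rps14 was at 180, 201 and 260 against 700, 676 and 695 in P13.9 and 374 ± 28.3 at 10.0 µM, and B2m, the light chain of class I molecules, at 325 ± 39.99 against 594 ± 90.1 and 479 ± 44.2. This class depended on the scaling: it held 8 genes after quantile normalization, 7 in CPM and 5 with edgeR, of which 5, 7 and 2 were among the 26. It also fell to 10 genes without 0.01 µM A or 10.0 µM A, 13 without 0.01 µM B and 14 without 10.0 µM B. Ribosomal genes have near-identical copies, and reads may be split between them.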

How the data were processed

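Per the labels' protocols, TRIzol RNA was made into Lexogen QuantSeq libraries, which sequence 3′ ends. The submitters' processing notes name HTSeq 0.9.1, STAR 2.6.1d and FastQC 0.11.8, besides DESeq2 and the build mm10. For annotation, strand setting and tool options, nothing is given in the sources used here. Without strand, overlapping and antisense genes cannot be told apart. The authors deposited 1 signal value per gene and library. The name of the deposited table gives the scaling as the median of ratios. Steps in these values gave whole reads for 99.9996% of 284544 values (tolerance 1e-05 reads). The exception was Tbx21 in 1 naive library. Of 15808 rows, 111 without a gene name, holding 1.94% to 15.7% of a library's reads, were left out. Of the names, 13863 matched a RefSeq symbol of GRCm38.p6, 30 a synonym and 1804 neither.

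Genes reaching a value of 5 in 3 or more libraries were tested with limma 3.58.1 in R 4.3.3 (lmFit, eBayes with a trend, log2(value + 1), adjusted p below 0.05) over the activated and P13.9 libraries. Naive cells were left out of this fit because their replicates differed more, and were compared in a fit of all 18. This scale understates changes of low genes. edgeR 4.0.16 and DESeq2 1.42.0 on recovered reads, other scalings, pseudocounts, filters and left-out libraries were alternatives. The fits were tested on simulated data. Genes with 1 to 3 reads in a group are given by read ratios with exact 95% intervals, which cover counting error only, and genes without a read by a floor of 3 reads over the group. The labels do not say whether replicates came from separate cultures, so p-values reflect only sample-to-sample spread, which may be technical.

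Named genes were the 14 genes of the stricter class, 10 of the T cell class and 12 lower genes with the largest changes among genes reaching a mean of 20 without overlap, the 4 top members by adjusted p in each list, and a fixed set of chemokine, cytokine, T cell and fibroblast genes. Other genes were named after their values were seen. Some genes that count in the classes and lists are not reported here by name. The members and lists were chosen with earlier results of these data known.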

Additional observations from a re-analysis of the deposited data

How the results depend on the processing

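The counts depended on the processing more than the directions of named genes did: over named genes and alternatives, 2005 values kept direction and side of the threshold, 132 (33 genes) lost the call and 2 (Ccl7) gained it. Without a filter the class above all 3 means held 379 genes, the stricter class 61 and its mirror 16. With a mean of at least 20, 416 genes were higher and 426 lower, and the classes held 64, 352 (T cell class) and 14. With all 18 libraries in the fit 886 were higher and 1170 lower, and the classes held 147, 739, 13 and, for the mirror, 6. Calls against P13.9 lost in that fit included those of H2-DMb1, Icam1, Il12rb1, Mki67, Smc2, Psmd1, Bnip3, Jun, Hmmr, Kif11 and Smco4. Quantile normalization gave 446 genes above, 82 in the stricter class and 8 in the mirror. CPM gave 1296 lower, 551 above, 98 and 7. edgeR gave 550 above, 86 and 5, with 1530 lower than at 10.0 µM and 1264 lower than naive, and DESeq2 gave 10 in the mirror. Asking for 1.5 times the means left 72 above, and a fit of naive and 0.01 µM alone called 600 higher. The cause of these shifts was not tested. Leaving out 1 library gave 1126 to 1288 higher and 1203 to 1789 lower than P13.9 (1203 without P13.9 2 and 1269 without P13.9 3), 1199 to 1391 higher and 482 to 630 lower than 10.0 µM (495 without 0.01 µM B, 483 and 482 without 10.0 µM A and B), 1640 to 2255 higher and 1437 to 1953 lower than naive, 206 to 256 above, 920 to 1143 in the T cell class, 25 to 47 in the stricter class and 10 to 34 in the mirror. Replicate letters did not pair the activated samples (same-letter correlations -0.22 to 0.22 over 18 pairs). With a replicate block 990 genes were higher than at 10.0 µM, against 1042 in the activated groups without it. No paired analysis was possible for P13.9 and naive cells because their columns carry no letters. Depth limits genes under a few reads in naive cells most.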
